A study of Mus musculus with 4 samples.

Results

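The 9 genes, most of them known as growth hormone-dependent and male-biased in mouse liver, are described here in livers without the selenocysteine tRNA gene or with mutant copies of it. They are Hsd3b4, Hsd3b5, Slco1a1, Cyp7b1, Mup5, Mup3, Mup2, Susd4 and Obp2a. Each has a probe annotated to that gene alone, 10 probes in all, out of 9285 genes measured on a 2-colour oligonucleotide array. Slco1a1 had 2 probes and the other members had 1 each. The genes were partly chosen by their values in these same columns, several being low in knockout liver and not in transgenic liver, so that pattern is given below as a description and carries no test.

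The livers came from male mice of a mixed B6/FVB strain, 7 to 8 weeks old, on a diet with sufficient selenium. DTrsp mice lacked Trsp, the gene of the selenocysteine tRNA, in the liver. A34 mice had a mutant Trsp transgene (T34-to-A34) in 2 copies. A second transgene, with an A37-to-G37 change, was present in 2 copies in G37L mice and in 16 copies in G37H mice. Each line was set against wild-type littermates called Trsp. The labels used here do not state how Trsp was removed, what drives the removal, or if the transgenic livers kept their own Trsp. The DTrsp, A34 and G37L columns are labelled as averages over 4 animals and the G37H column as an average over 3.

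Every value below is a log2 ratio of mutant liver (Cy5) over wild-type liver (Cy3), so 0 means the same level as wild type, -1 a level 2-fold lower and 1 a level 2-fold higher. The direction is likely rather than stated, since it rests on the dye labels, while the sample titles name wild type first, as in Trsp vs DTrsp. Every sign would be the opposite if the ratio ran the other way. Base 2 of the logarithm is assumed. Only the authors' averages were deposited as values, so no spread between animals, interval or p-value can be given, and no difference below has been set against replicate error. Signal levels were not used here, so it is not known which genes were bright and which were near background. Trsp has no named probe, and the knockout itself was not checked. The median over all genes was 0.16 in DTrsp, 0.07 in A34 liver, -0.11 in G37L and -0.11 in G37H. Between columns, Pearson's r over all 15478 probes lay between 0.03 (DTrsp and A34) and 0.47 (G37L and G37H).

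The pituitary of male rodents releases growth hormone in pulses, and each pulse activates the kinase JAK2 and the transcription factor STAT5B in hepatocytes. This pulsed signal keeps a set of male-biased liver genes high, among them genes for steroid and oxysterol metabolism, for an organic anion transporter and for the major urinary proteins, which carry pheromones. In females the hormone level is steadier, and other liver genes, the female-biased ones, are high. Trsp supplies the tRNA that inserts selenocysteine into selenoproteins.

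In DTrsp liver, 6 of the 9 genes were at least 2-fold lower than in wild type and 0 were at least 2-fold higher. In the same column 1.62% of all genes passed the lower mark and 3.27% the higher one. The 6 were Hsd3b4, Hsd3b5, Slco1a1, Mup5, Cyp7b1 and Susd4, and because the list was drawn up with these values known, nothing is read from the count. The member median was -1.08 in DTrsp, against an all-gene median of 0.16. The members fell into a very low trio of Hsd3b4, Hsd3b5 and Slco1a1, an intermediate group of Mup5, Cyp7b1 and Susd4 close to the 2-fold mark, and the remaining Mup3, Mup2 and Obp2a at or above 0. The last of the genes inside the 2-fold mark was Susd4 at -1.04, and the first outside it was Obp2a at 0.02. The label as one group of genes that move together therefore did not hold for all 9.

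In the transgenic lines the member medians lay above wild type. Not every member was higher there than in DTrsp. Obp2a and Mup2 were lower in A34 and G37L than in DTrsp, Mup3 was lower in A34 and Susd4 was lower in G37L. In A34, 0 of the 9 passed the 2-fold mark downwards (0.452% of all genes) and 1 upwards (1.4% of all genes), with a member median of 0.50. In G37L, 1 passed it downwards (3.96% of all genes) and 1 upwards (2.51% of all genes), with a member median of 0.22. Since 5 members were above 0 and 4 below in G37L, the sign of that median turns when 1 of the higher ones is left out (-0.24 without Slco1a1). In G37H, 0 passed it downwards (3.1% of all genes) and 2 upwards (2.78% of all genes), with a member median of 0.49. Of the 9, 5 were at least 2-fold lower in DTrsp and in no transgenic line, as were 1.32% of all genes: Hsd3b4, Hsd3b5, Slco1a1, Cyp7b1 and Mup5. This is the pattern used in choosing the list. Susd4 is the exception among the 6, as it was also low in G37L.

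**Figure D1:**
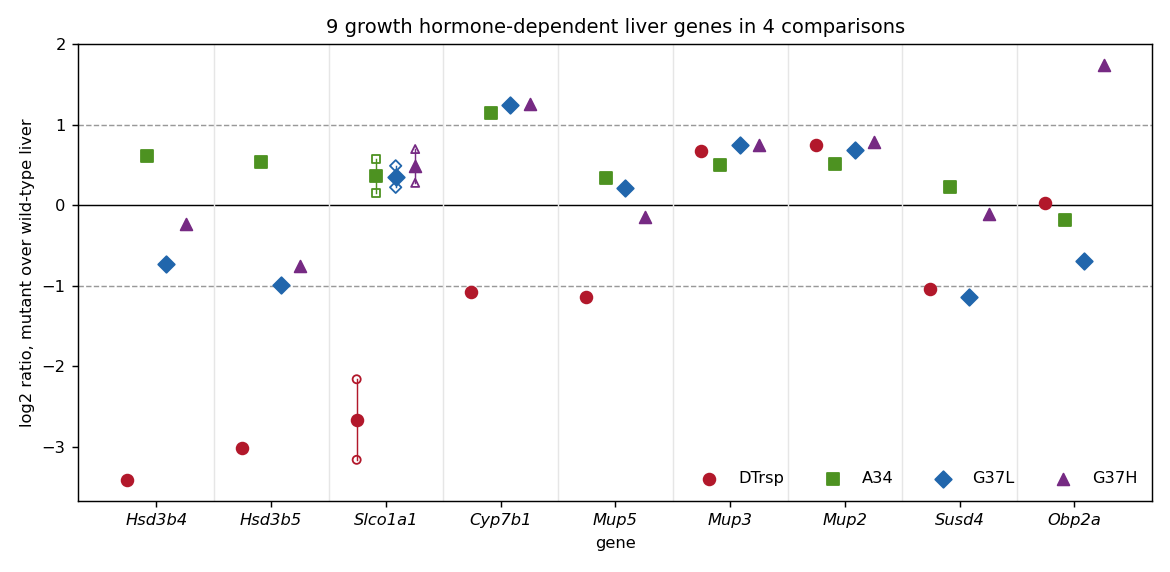
Log2 ratio of mutant over wild-type liver (vertical axis) for each of the 9 genes (horizontal axis) in DTrsp, A34, G37L and G37H, 1 authors' average per point, with the 2 single probes of Slco1a1 as small open symbols joined by a line and the 2-fold marks dashed. Hsd3b4, Hsd3b5 and Slco1a1 lie between -3.41 and -2.66 in DTrsp, while Mup2 and Mup3 lie between 0.50 and 0.79 in all 4 comparisons.

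Hsd3b4 and Hsd3b5 encode members of the 3-beta-hydroxysteroid dehydrogenase family that in the mouse act mainly as 3-ketosteroid reductases, which inactivate steroid hormones. Hsd3b5 is a classic male-specific gene of mouse liver, whereas Hsd3b4 is best known from the kidney. Hsd3b4 (probe annotated to NM_008294) was at -3.41 in DTrsp, 0.61 in A34 liver, -0.72 in G37L and -0.23 in G37H. It was 10.6-fold lower in DTrsp and the lowest of all 9285 genes there. Hsd3b5 (NM_008295) was at -3.01 in DTrsp, 0.53 in A34 liver, -0.995 in G37L and -0.76 in G37H. It was 8.06-fold lower in DTrsp, at rank 2 from the lowest. For both genes the lines stood in the same order, lowest in DTrsp, then G37L, then G37H, with A34 the only comparison above 0. In G37L, 4.00% of all genes lay below Hsd3b5 and 10.1% below Hsd3b4, and in G37H the shares were 6.98% and 38.7%. Genes of this family are close in sequence, so a probe may read more than the gene it names, and the values of Hsd3b4 and Hsd3b5 may not be independent.

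The Hsd3b genes form a cluster on chromosome 3, where Hsd3b4 and Hsd3b5 are neighbours among the 6 protein-coding members, followed by Hsd3b2 and Hsd3b3. The clustered relatives had other values. Hsd3b2, on 2 probes, was at -0.77 in DTrsp, 0.95 in A34 liver, 0.84 in G37L and 1.08 in G37H, so it lay above 0 in the G37 lines where Hsd3b5 lay below. Its 2 probes gave -1.07 and -0.47 in DTrsp. Hsd3b3 was at 0.27 in DTrsp, 0.01 in A34 liver, -2.06 in G37L and -1.44 in G37H, the reverse order of Hsd3b5 between DTrsp and the G37 lines. The more distant Hsd3b7, which acts in bile acid synthesis, was at 0.53 in DTrsp and between -0.11 and 0.16 in the transgenic lines. Nsdhl, a cholesterol synthesis enzyme, averaged -0.63 in DTrsp and between -0.19 and 0.35 elsewhere. Its probes differed in sign in G37L and in G37H, so no direction is given for Nsdhl in those lines. Of the 4 measured relatives, 0 were at least 2-fold lower in DTrsp (1.62% of all genes). In G37L (3.96%) and in G37H (3.1%) the count was 1, Hsd3b3 in both.

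The promoter windows of the pair and of Hsd3b3 are shown because the genes lie in 1 cluster and differed in value. Sequences are from RefSeq, assembly GRCm38.p6, and run 5′ to 3′ on the gene's strand from 250 bases before the annotated start to 50 after it, with capitals marking the letters ATTGAT or their reverse complement, the core of sites bound by ONECUT factors such as HNF6. Each gene's first listed window is printed.
Hsd3b4, chr3:98510518-98510817, minus strand: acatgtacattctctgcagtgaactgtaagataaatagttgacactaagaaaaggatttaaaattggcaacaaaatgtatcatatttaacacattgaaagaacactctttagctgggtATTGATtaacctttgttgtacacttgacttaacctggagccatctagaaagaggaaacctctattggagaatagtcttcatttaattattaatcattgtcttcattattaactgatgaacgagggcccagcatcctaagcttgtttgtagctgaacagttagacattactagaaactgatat
Hsd3b5, chr3:98645485-98645784, minus strand: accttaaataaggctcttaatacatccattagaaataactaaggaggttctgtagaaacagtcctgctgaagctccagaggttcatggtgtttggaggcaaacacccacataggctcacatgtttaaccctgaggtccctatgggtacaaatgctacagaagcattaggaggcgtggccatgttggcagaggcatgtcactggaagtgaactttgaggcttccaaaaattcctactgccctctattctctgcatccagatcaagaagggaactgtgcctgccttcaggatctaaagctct
Hsd3b3, chr3:98763079-98763378, minus strand: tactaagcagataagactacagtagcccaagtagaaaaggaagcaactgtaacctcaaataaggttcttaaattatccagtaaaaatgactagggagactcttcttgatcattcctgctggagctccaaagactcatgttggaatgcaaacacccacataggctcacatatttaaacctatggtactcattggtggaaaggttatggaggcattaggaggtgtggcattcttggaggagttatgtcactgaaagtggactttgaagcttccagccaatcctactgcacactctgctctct
With end gaps left out, 193 of 254 aligned columns were identical between Hsd3b3 and Hsd3b5 (76.0%), against 168 of 314 between Hsd3b4 and Hsd3b5 (53.5%). Aligned over their whole length, the window of Hsd3b5 was 55.5% identical to that of Hsd3b3, 55.2% to that of its neighbour Hsd3b2 and 51.1% to that of Hsd3b4, a narrower gap. Windows of Hsd3b4 and Slco1a1, from different families, reached 56.2% with end gaps left out and 53.7% over the whole length. The identity of Hsd3b4 and Hsd3b5 was therefore no higher than that of a pair from different families.

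Slco1a1 encodes an organic anion transporter of the sinusoidal membrane that takes up bile acids, steroid conjugates and drugs, and its liver level is higher in males. Its 2 probes (NM_013797) gave -2.16 and -3.16 in DTrsp, 0.58 and 0.15 in A34, 0.49 and 0.22 in G37L, and 0.70 and 0.28 in G37H. Both probes were far below wild type in DTrsp and above it in every transgenic line, and in each transgenic line it was the same probe that read higher. Their mean was -2.66 in DTrsp, 6.31-fold lower and at rank 3 from the lowest, then 0.36 in A34 liver, 0.36 in G37L and 0.49 in G37H. Relative to the hepatocyte markers, described with the Mup genes, the G37L mean turned to -0.26. Slco1a1 is the only member whose value can be read on more than 1 probe. Its promoter window is shown because it is the lowest member outside the Hsd3b cluster. It holds no ATTGAT in either direction.
Slco1a1, chr6:141946913-141947212, minus strand: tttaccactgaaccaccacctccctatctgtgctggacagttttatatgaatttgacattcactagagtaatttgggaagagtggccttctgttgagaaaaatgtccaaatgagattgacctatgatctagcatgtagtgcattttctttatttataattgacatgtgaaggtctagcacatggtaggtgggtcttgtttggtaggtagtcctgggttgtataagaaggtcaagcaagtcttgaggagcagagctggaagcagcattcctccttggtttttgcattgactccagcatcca

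Other organic anion transporters did not follow Slco1a1. Of 6 measured relatives, 0 passed the 2-fold mark downwards in DTrsp (1.62% of all genes). They had a median of 0.12 there and a range of -0.75 to 0.25. The liver transporter Slco1b2 was at 0.25 in DTrsp, 0.19 in A34 liver, -0.42 in G37L and -0.10 in G37H. The bile acid importer Slc10a1 was at 0.18 in DTrsp, -0.42 in A34 liver, -0.85 in G37L and -0.39 in G37H. Slco1a4, the nearest relative measured, averaged 0.04 in DTrsp from 2 probes that disagreed, at 1.29 and -1.20, so no direction is given for it there.

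Cyp7b1 encodes the oxysterol 7-alpha-hydroxylase, which clears oxysterols and some steroids and feeds the acidic pathway of bile acid synthesis. Cyp7b1 (NM_007825) was at -1.08 in DTrsp, 1.14 in A34 liver, 1.25 in G37L and 1.26 in G37H. It was the only member on opposite sides of wild type and past 2-fold on each. It was 2.11-fold lower in DTrsp, where 1.08% of all genes lay below it. Of all genes, 0.915% lay above it in A34 liver, 1.40% in G37L and 1.31% in G37H, so in each column it was near an end of the range.

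The other bile acid and oxysterol enzymes moved differently from Cyp7b1. Of 7 measured, 1 was at least 2-fold higher in DTrsp (3.27% of all genes), the sterol 12-alpha-hydroxylase Cyp8b1. Cyp8b1 was at 1.52 in DTrsp, -0.74 in A34 liver, -1.29 in G37L and -0.53 in G37H. In G37L, 2 of the 7 were at least 2-fold lower (3.96% of all genes), Cyp8b1 and the steroid 5-beta-reductase Akr1d1 at -1.73. Cyp7a1, the rate-limiting enzyme of the classic pathway, was at 0.42 in DTrsp, -0.30 in A34 liver, 0.16 in G37L and -0.24 in G37H. Cyp27a1, which makes oxysterols that Cyp7b1 can use, averaged -0.07 in DTrsp, 0.87 in A34 liver, 0.05 in G37L and 0.19 in G37H. Its 2 probes disagreed, at 0.22 and -0.37 in DTrsp and at 0.07 and 1.68 in A34. The A34 average therefore rests on 1 probe, and no direction is given for Cyp27a1 in DTrsp. Cyp39a1, another oxysterol hydroxylase, was at 0.42 in DTrsp and between -0.07 and 0.28 in the transgenic lines. Its 2 probes lay on opposite sides of 0 in each transgenic line, as at -0.06 and 0.61 in G37H. No direction is given for Cyp39a1 in those lines.

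Mup5, Mup3 and Mup2 encode major urinary proteins, small secreted lipocalins that bind pheromones and are made in very large amounts by male liver. Mup5 (NM_008649) was at -1.14 in DTrsp, 0.33 in A34 liver, 0.22 in G37L and -0.14 in G37H. It was 2.20-fold lower in DTrsp and within 1.26-fold of wild type in the other lines. Mup2 (NM_008647) was at 0.74 in DTrsp, 0.51 in A34 liver, 0.68 in G37L and 0.79 in G37H. Mup3 (NM_001039544) was at 0.68 in DTrsp, 0.50 in A34 liver, 0.74 in G37L and 0.75 in G37H. Mup2 and Mup3 lay above 0 in all 4 comparisons, at nearly the same place in each, and Mup5 differed from them most in DTrsp.

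Mup2 and Mup3 lay within the range of the hepatocyte markers in DTrsp, A34 and G37L, and above the highest of them, Serpina1a at 0.744, in G37H. The 21 measured hepatocyte markers had a median of 0.56 in DTrsp, 0.34 in A34 liver, 0.62 in G37L and 0.34 in G37H, with 19, 19, 18 and 19 of them above 0. The all-gene medians in the same order were 0.16, 0.07, -0.11 and -0.11. Albumin, Alb, was at 0.79 in DTrsp, 0.42 in A34 liver, 0.67 in G37L and 0.72 in G37H. Relative to the marker median, Mup2 was at 0.18 in DTrsp, 0.17 in A34 liver, 0.06 in G37L and 0.45 in G37H, and Mup3 was at 0.11, 0.17, 0.13 and 0.40 in the same order. The signs of Mup5 in A34 and G37L, of Susd4 in A34 and of Obp2a in DTrsp turned on that scale, to -0.0033, -0.40, -0.10 and -0.54. On that scale the low members were lower still in DTrsp, with Hsd3b4 at -3.97, Hsd3b5 at -3.58, Slco1a1 at -3.22, Mup5 at -1.70, Cyp7b1 at -1.64 and Susd4 at -1.61. The ribosomal protein gene Rps29 was at 0.78 in DTrsp, 0.51 in A34 liver, 0.63 in G37L and 0.71 in G37H before this centring. It was picked as the gene nearest to Mup2, and it shows that such values were not confined to hepatocyte markers. In whole liver, fewer cells of a type and less RNA per cell cannot be told apart. An effect of dye or signal level was not tested, as no dye swap or signal level is known here. The part of the marker shift in the values of Mup2 and Mup3 was not tested.

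The Mup genes form a long cluster on chromosome 4, with 22 protein-coding members of very similar sequence in the annotation, so a Mup probe may read several of them. The windows of Mup2 and Mup3 are shown because their values were so close and because each holds the ATTGAT core 2 times, in capitals.
Mup2, chr4:60139807-60140106, minus strand: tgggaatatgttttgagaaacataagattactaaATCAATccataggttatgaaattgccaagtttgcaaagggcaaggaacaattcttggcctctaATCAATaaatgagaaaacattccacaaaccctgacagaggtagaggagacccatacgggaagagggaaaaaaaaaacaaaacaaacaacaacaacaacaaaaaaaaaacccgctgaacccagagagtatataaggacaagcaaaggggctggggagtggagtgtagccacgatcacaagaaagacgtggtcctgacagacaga
Mup3, chr4:62087268-62087567, minus strand: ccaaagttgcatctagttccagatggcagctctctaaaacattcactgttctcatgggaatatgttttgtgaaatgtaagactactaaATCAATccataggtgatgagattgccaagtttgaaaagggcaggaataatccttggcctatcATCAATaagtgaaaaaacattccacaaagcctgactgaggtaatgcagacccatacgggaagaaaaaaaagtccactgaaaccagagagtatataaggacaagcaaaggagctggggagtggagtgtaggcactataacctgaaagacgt
Of 284 aligned columns, 218 were identical between these windows (76.8%, end gaps left out). Aligned over their whole length the pair reached 61.6%, against 39.4% to 53.7% for the other 20 pairs among the 7 members that had a window. Cyp7b1 and Mup5 had none.

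Across the 9 windows of the 7 members that had any, 4 held ATTGAT in either direction, against 7.54% of all 32851 windows. They belonged to 3 members, Hsd3b4, Mup2 and Mup3. The windows of Hsd3b4 overlap and those of Mup2 and Mup3 are alike in sequence, so they are not separate cases and no enrichment is read from the count. The letters TTCNNNGAA, the core of sites that STAT factors bind, occurred in 0 of the 9 windows of these members, against 8.30% of all windows. A match or its absence describes these letters in these windows only. The genes with ATTGAT included the lowest member in DTrsp and members above 0 there. Among the first windows of the 7, that of Susd4 was the most GC-rich at 81.3% and that of Hsd3b4 the least at 33.7%, with a median of 52.7% over all windows.

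Obp2a encodes an odorant-binding lipocalin that is male-biased in mouse liver. Obp2a (NM_153558) was at 0.02 in DTrsp, -0.18 in A34 liver, -0.69 in G37L and 1.74 in G37H. Only G37H was far from wild type, 3.35-fold higher, with 0.312% of all genes above it, although G37H and G37L carry the same tRNA change. The difference between these lines was not tested. Susd4 encodes a membrane protein with sushi domains that restrains complement. Susd4 (NM_144796) was at -1.04 in DTrsp, 0.23 in A34 liver, -1.13 in G37L and -0.10 in G37H. It was 2.06-fold lower in DTrsp and 2.19-fold lower in G37L, and close to wild type in the other lines.

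The relatives of these genes showed other patterns. Among 11 further lipocalins and Mup relatives, 4 were at least 2-fold higher in G37L (2.51% of all genes). They were the acute phase genes Lcn2, Orm1 and Orm2, at 4.47, 2.10 and 2.01, and Lcn12 at 1.26. Mup2, Mup3 and Mup5 lay between 0.22 and 0.74 in G37L. In DTrsp, Lcn2 and Orm1 were both at 1.07 and the other 9 lay between -0.35 and 0.74. Among 7 further complement regulators and sushi-domain genes, 0 were at least 2-fold from wild type in any line. Of all genes, 0.452% to 3.96% were, per line and direction. The complement protease gene Cfi, at 0.89 in DTrsp and 0.78 in G37L, had the opposite sign to Susd4 in the lines where Susd4 was low.

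**Figure D2:**
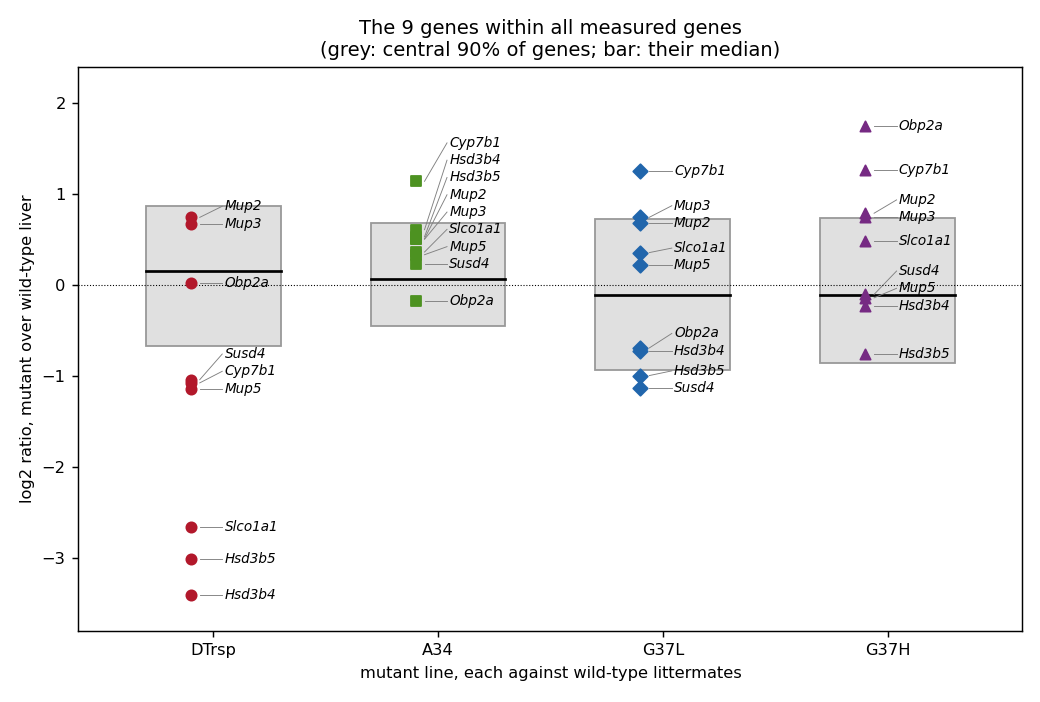
The 9 genes (coloured symbols with names) on the log2 ratio scale (vertical axis) in each mutant line (horizontal axis), beside the central 90% of all 9285 genes (grey box) and their median (black bar). In DTrsp 6 of the 9 lie below the box, while in A34 Cyp7b1 lies above it and 0 lie below.

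Subtracting a transgenic line's log2 ratio from that of DTrsp gives the distance between the lines. The labels used here do not state if wild-type animals were shared between comparisons, and these differences have no error. Of the 9, 6 were at least 2-fold lower in DTrsp than in A34, relative to wild type (4.48% of all genes), 5 than in G37L (3.96%) and 5 than in G37H (4.26%). Hsd3b4 differed by -4.02 against A34, -2.69 against G37L and -3.18 against G37H. Slco1a1 differed by -3.02, -3.01 and -3.15 in the same order and Cyp7b1 by -2.22, -2.32 and -2.34, so for Slco1a1 and Cyp7b1 the distance was nearly the same against each line. Hsd3b5 differed by -3.54 against A34 and by -2.02 and -2.25 against G37L and G37H. Susd4 differed by -1.27 against A34, 0.09 against G37L and -0.94 against G37H.

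Of 18 growth hormone signalling genes measured, 0 passed the 2-fold mark in DTrsp (1.62% of all genes lower, 3.27% higher). They had a median of -0.03 there, or -0.60 relative to the hepatocyte markers, and ranged from Jak2 at -0.64 to the insulin receptor substrate Irs1 at 0.76. The receptor Ghr was at 0.31 in DTrsp, 0.18 in A34 liver, -0.46 in G37L and 0.05 in G37H. The kinase Jak2, lowest of the list in DTrsp, averaged -0.34 in A34 liver, -0.27 in G37L and -0.34 in G37H. Its 2 probes gave -0.30 and -0.98 in DTrsp and -0.67 and -0.0027 in G37H. They lay on opposite sides of 0 in G37L, at -0.93 and 0.38, so no direction is given for Jak2 there. Stat5b, the main transmitter of the male pattern, was at 0.57 in DTrsp, 0.39 in A34 liver, -0.32 in G37L and -0.79 in G37H. Its relative Stat5a was at -0.24 in DTrsp, 0.48 in A34 liver, -0.21 in G37L and 0.34 in G37H. In DTrsp the value of Stat5b was close to the hepatocyte marker median of 0.56.

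Of the products and feedback inhibitors Igf1, Igfals, Socs2, Cish and Socs3, all were above 0 in A34 and G37H, and they lay on both sides of 0 in DTrsp and G37L. Relative to the hepatocyte markers, Cish lay below in A34 and Igfals below in G37H. Igf1, the main endocrine product of growth hormone action, was at 0.20 in DTrsp, 0.44 in A34 liver, 0.24 in G37L and 0.35 in G37H. Igfals, whose protein carries IGF1 in blood, was at -0.19 in DTrsp, 0.55 in A34 liver, -0.84 in G37L and 0.19 in G37H. The feedback inhibitor Socs2 was at -0.37 in DTrsp, 0.40 in A34 liver, 0.05 in G37L and 1.12 in G37H. Cish, another feedback inhibitor, was at 0.25 in DTrsp, 0.18 in A34 liver, -1.06 in G37L and 0.74 in G37H. Socs3, which also answers to inflammatory cytokines, was at -0.31 in DTrsp, 0.71 in A34 liver, 1.25 in G37L and 0.81 in G37H. In G37H, Socs2 was the 1 gene at least 2-fold higher among the 18 signalling genes, against 2.78% of all genes.

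Among 18 transcription factors tied to liver sex bias, Onecut1 stood lowest in DTrsp. Onecut1, the gene for HNF6, which works with STAT5 at sex-biased genes, was at -1.32 in DTrsp, -0.62 in A34 liver, -1.07 in G37L and -1.09 in G37H. Its 2 probes were both below 0 in all 4 comparisons, from -1.56 and -1.09 in DTrsp to -0.82 and -0.41 in A34. Any link between the values of Onecut1 and those of the members was not tested. Bcl6, a repressor that opposes STAT5 and is higher in male liver, was at 0.41 in DTrsp, 0.59 in A34 liver, 0.52 in G37L and 2.10 in G37H. Cux2, a female-specific repressor, averaged 0.08 in DTrsp, 0.27 in A34 liver, -0.49 in G37L and 0.04 in G37H. Its 2 probes had opposite signs in DTrsp, at -0.29 and 0.45, and in G37H, at 0.16 and -0.08. No direction is given for Cux2 in those 2 lines. Hnf4a, needed for many male-biased genes, was at 0.64 in DTrsp, 0.47 in A34 liver, 0.35 in G37L and 0.47 in G37H. Of the others at least 2-fold away, Foxa3 was at 1.13 in G37L and the bile acid-induced repressor Nr0b2 at -1.27 in G37H.

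**Figure D3:**
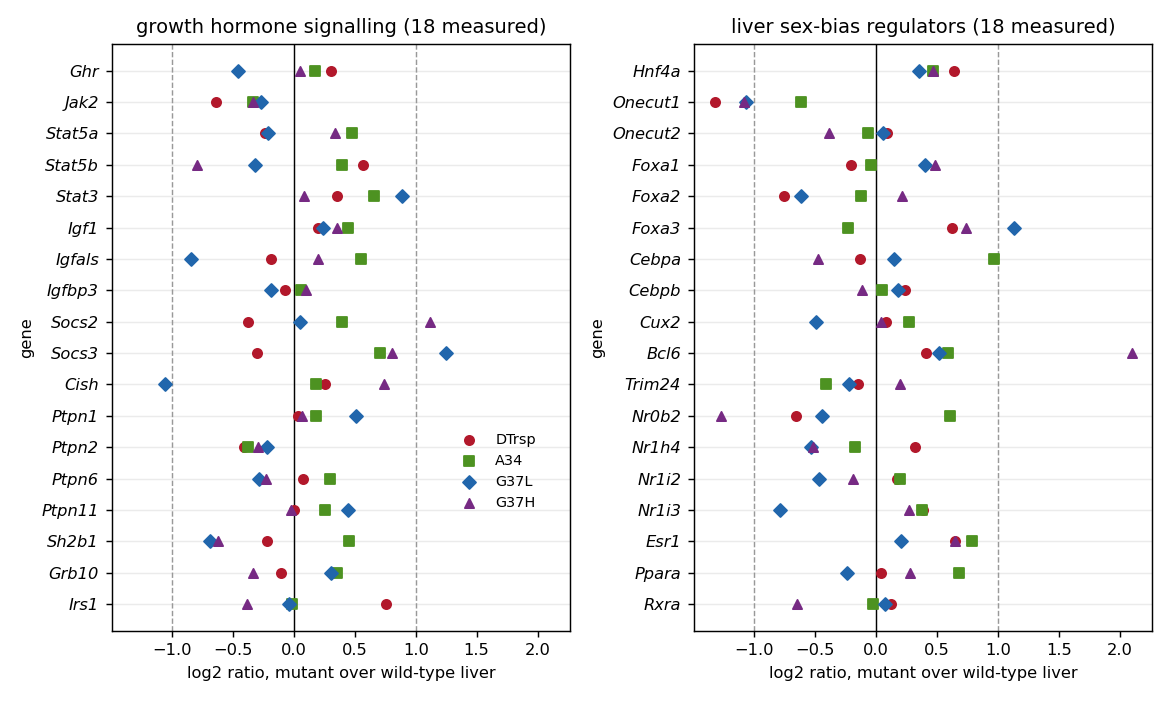
Log2 ratio of mutant over wild-type liver (horizontal axis) for 18 growth hormone signalling genes (left) and 18 transcription factors of liver sex bias (right), 1 symbol per mutant line, with the 2-fold marks dashed. In DTrsp the left panel stays between -0.64 and 0.76, and on the right Onecut1 lies at -1.32.

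Most other male-biased genes did not share the DTrsp values of the low members. Those members were partly chosen for being low in DTrsp, so this contrast is partly built in and nothing is read from it. Of 25 measured, 1 was at least 2-fold lower in DTrsp (1.62% of all genes), the terminal complement gene C6 at -1.49. In DTrsp 1 was at least 2-fold higher (3.27% of all genes), Cyp8b1. In that column their median was 0.16, the same to 2 decimals as the all-gene median, and -0.40 relative to the hepatocyte markers. C6 was read by 2 probes, at -1.21 and -1.76 in DTrsp, and averaged 0.83 in A34 liver, 0.41 in G37L and 0.01 in G37H. In G37H the probes of C6 disagreed, at -0.40 and 0.43, so no direction is given for it there. After C6 the lowest in DTrsp were the neural proteoglycan gene Cspg5 at -0.95, the glucuronosyltransferase Ugt2b38 at -0.84, Hsd3b2 at -0.77 and C9 at -0.66. Of the 25, 11 were below 0 in DTrsp and 14 above. Ugt2b38 was at 1.17 in A34 liver, 2.75 in G37L and 1.07 in G37H, so like Cyp7b1 it lay below wild type in DTrsp and at least 2-fold above it in every transgenic line. The male-biased fatty acid hydroxylases Cyp4a12a and Cyp4a12b were at -0.10 and -0.33 in DTrsp, and between 0.44 and 0.90 in the transgenic lines.

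In A34 the median of the other male-biased genes was 0.55, against an all-gene median of 0.07, with 22 of 25 above 0. Relative to the hepatocyte markers the median stayed above 0, at 0.22. Of the 25, 3 were at least 2-fold higher in A34 (1.4% of all genes). The 3 were the adipokine Serpina12 at 1.65, Ugt2b38 at 1.17 and the terminal complement gene C9 at 1.16. In G37L and G37H their medians were 0.15 and 0.19, and these turned to -0.46 and -0.15 relative to the hepatocyte markers. Igfals is on the signalling list too, and Hsd3b2 on that of the Hsd3b relatives.

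Female-biased genes were mostly above wild type in DTrsp. Of 12 measured, 5 passed the 2-fold mark upwards and 0 downwards, and their median was 0.85, or 0.28 relative to the hepatocyte markers. The 5 were the fatty acid transporter Cd36 at 2.41, the fatty acid hydroxylase Cyp4a14 at 2.10, the hepcidin relative Hamp2 at 1.71, the coumarin hydroxylase relative Cyp2a4 at 1.70 and the steroid hydroxylase Cyp17a1 at 1.55. Cd36 and Cyp4a14 also answer to PPAR factors, and Cyp2a4 is close to Cyp2a5 in sequence. The female-specific Cyp3a41a and Cyp3a44 were at -0.10 and -0.03. In A34 these 12 genes had a median of -0.58 (-0.91 against the hepatocyte markers) with 10 below 0, and the all-gene median was 0.07. In A34 2 were at least 2-fold lower (0.452% of all genes), Cyp4a14 at -3.10 and Cd36 at -1.23. In G37L the median was -0.78, or -1.40 relative to the hepatocyte markers, with 9 below 0, and the all-gene median was -0.11. There 3 were at least 2-fold lower (3.96% of all genes), Cyp4a14 and Cd36 both at -1.63 and Cyp3a44 at -1.04. Another 3 were at least 2-fold higher (2.51%), Cyp2c39 at 1.39, Cyp2b10 at 1.37 and Gadd45g at 1.28. In G37H the median was 0.12, and -0.23 relative to the hepatocyte markers. Cyp2b10 at 2.84 and the growth arrest gene Gadd45g at 1.87 were highest in G37H and Cd36 at -1.92 lowest.

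**Figure D4:**
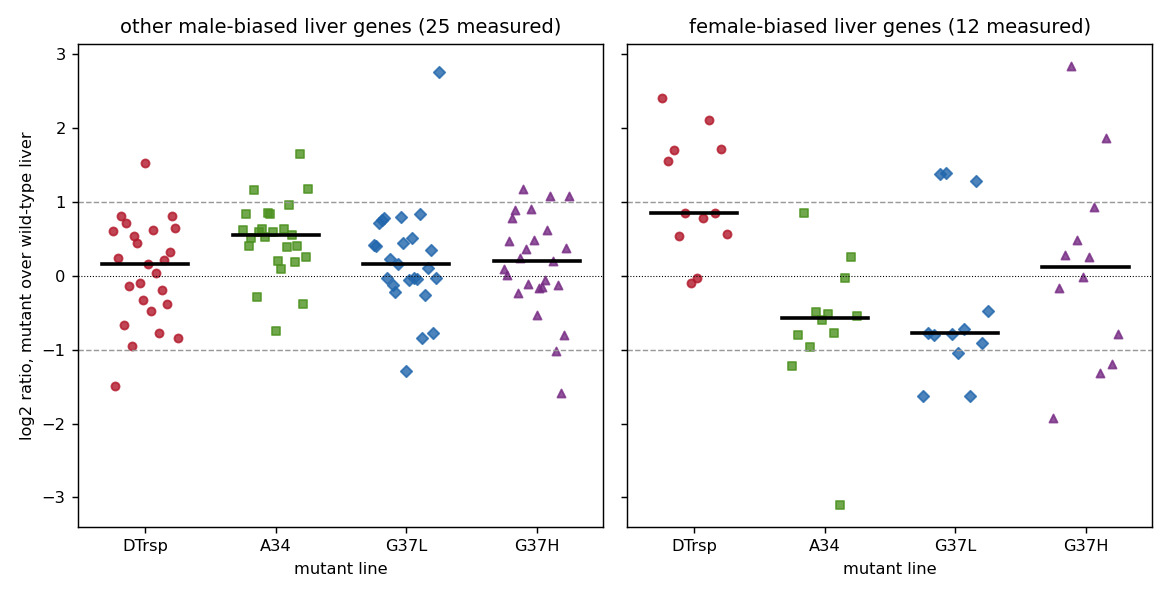
Log2 ratio of mutant over wild-type liver (vertical axis) of 25 further male-biased genes (left) and 12 female-biased genes (right) in each line (horizontal axis), 1 symbol per gene placed in alphabetical order, with the list median as a black bar. The female-biased median is 0.85 in DTrsp, against -0.58 in A34 and -0.78 in G37L, and the male-biased median is highest in A34 at 0.55.

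Markers of other liver cells moved beside the members as follows. Of 13 Kupffer cell and macrophage markers, 7 were above 0 in DTrsp, 12 in A34 liver, 13 in G37L and 11 in G37H, with medians of 0.36, 0.60, 0.72 and 0.48. The all-gene medians in the same order were 0.16, 0.07, -0.11 and -0.11. Of 8 endothelial markers the medians were 0.53 in DTrsp, 0.30 in A34 liver, -0.00065 in G37L and 0.38 in G37H, and of 7 stellate cell markers they were -0.34, 0.33, 0.02 and -0.01. Only 2 cholangiocyte and 2 lymphocyte markers were measured, with medians of 0.29 and 0.43 in DTrsp. The part of any such shift in the members' values was not tested.

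The genes most like 5 of the members over the 4 columns were found by the smallest Euclidean distance between log2 ratios. Nearest to Hsd3b5 was Hsd3b4 at a distance of 0.72, followed by the serpin Serpina3b at 1.35 and the extracellular protein Olfml3 at 1.57. Nearest to Slco1a1 were Serpina3b at 0.82, C6 at 1.35 and the lectin Lgals3 at 1.36. Serpina3b itself was at -2.30 in DTrsp, 0.54 in A34 liver, -0.26 in G37L and 0.13 in G37H. Like the low trio it was far below wild type in DTrsp and above it in A34. In G37L and G37H the trio did not share a sign, and Serpina3b lay between Hsd3b5 and Slco1a1. Serpina3b was picked by its closeness to these members, so the likeness is no separate observation. Nearest to Cyp7b1 were the kinase Prkd1 at 0.39, the transporter Slc4a11 at 0.55 and the protease Prss22 at 0.55. Nearest to Mup2 were the ribosomal protein gene Rps29 at 0.0987, the complement gene C8b at 0.0989 and Mup3 at 0.102. Nearest to Obp2a were Zfp830 at 0.53, the cell cycle inhibitor Cdkn1a at 0.56 and the olfactory receptor gene Olfr518 at 0.56. Mup2 had the closest neighbours of the 5, and Hsd3b4 aside, Hsd3b5 the most distant. These distances rest on 4 averages and are a description.

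The decimals of a value bear on how many arrays it came from. The DTrsp value of Hsd3b4 has the decimals of a mean over 3 arrays, if single arrays were written to 4 decimals, and so would leave out 1 of the labelled animals. In that column 14.0% of all probes had such decimals. The DTrsp values of Hsd3b5 and Cyp7b1, and of Mup3, have the decimals of a mean over 4 arrays. The other DTrsp values of members, and the G37H values of Hsd3b4, Cyp7b1, Mup5 and Susd4, have decimals that do not settle the number of arrays.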

How the data were processed

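Per the labels' protocols, 15 µg of Trizol-extracted liver RNA was reverse transcribed with oligo-dT and coupled to Cy3 (wild type) or Cy5 (mutant). The deposited table holds 1 column per comparison. Its values are read as log2 ratios that the authors averaged over biological replicates, per the labels. The sources used here give no normalization, background correction, dye swap or log base. Base 10 was set aside, since the largest value, 4.89, would then stand for a ratio no scanner can record.

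Of 15478 probes, 12984 were named through the annotation's gene identifier in RefSeq's GRCm38.p6 genes and 63 by the annotation's symbol. Probes of several genes (110) or not listed (2321) were left unnamed. Probes of a gene were averaged, giving 9285 genes, and counts use a 2-fold threshold. No test was run, as each group has 1 averaged column. Script arithmetic was tested on simulated data. Python 3.11.15, pandas 2.3.3 and numpy 2.4.6 were used. The members and lists were chosen with earlier results of these data known. Named genes are the members, any growth hormone signalling gene, list members at least 2-fold from wild type or otherwise up to 4 with the largest values, and the 3 nearest genes of 5 members. Genes outside that rule, such as Alb, Slco1b2, Cyp27a1 and Cux2, were chosen after their values were seen. Alternatives were centring, scaling, the log base, the probe summary, the member summary and the fold threshold.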

Additional observations from a re-analysis of the deposited data

Results flagged for a closer look

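Some named genes lay at least 2-fold from wild type on opposite sides in different lines. With 1 average per line, none of these differences was tested. Among the members this held for Cyp7b1, whose log2 ratio in DTrsp minus that in the transgenic line was -2.22 for A34, -2.32 for G37L and -2.34 for G37H.

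Outside the members, female-biased Cd36 was high in DTrsp and low in the other lines, with DTrsp minus A34 at 3.63, minus G37L at 4.03 and minus G37H at 4.32. Cyp4a14 did the same, with differences of 5.20, 3.73 and 3.42 in that order. The bile acid hydroxylase Cyp8b1 differed by 2.81 between DTrsp and G37L, and Hamp2 by 2.91 between DTrsp and G37H. Serpina12 differed by 3.23 between A34 and G37H.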

How the results depend on the processing

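Centring each column on its all-gene median, or taking the median over probes, moved no member median, difference or count beyond the median SD between probes of a gene or 1.5 times. With every column scaled to the DTrsp column's median absolute deviation, the A34 median moved to 0.73. Read as natural logs, the member medians were -1.55 in DTrsp, 0.72 in A34 and 0.70 in G37H, and the DTrsp differences -2.12 (A34), -1.95 (G37L) and -2.48 (G37H). The counts then became 1 higher in DTrsp (10.2% of all genes), 3 lower (11.1%) and 2 higher (5.51%) in G37L, and 1 lower (8.91%) and 4 higher (5.77%) in G37H. The mean over members in G37L was -0.0331. Without Slco1a1, the member with 2 probes, the G37L median was -0.24 and the DTrsp minus G37L difference -0.71.

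At 1.5-fold the counts were 2 higher in DTrsp (15.6% of all genes), 2 higher in A34 (7.6%), 4 lower (15.3%) and 3 higher (7.45%) in G37L, and 1 lower (13.1%) and 4 higher (7.3%) in G37H. At 3-fold they were 3 lower in DTrsp (0.162%), 0 higher in A34 (0.237%), 0 lower (0.635%) and 0 higher (0.657%) in G37L, and 1 higher in G37H (0.549%). Centring on the hepatocyte markers, chosen after seeing the data, gave medians of -1.64 in DTrsp, 0.17 in A34 liver, -0.40 in G37L and 0.14 in G37H, with 0 higher in A34 (0.366%), 4 lower (27.1%) and 0 higher (0.582%) in G37L, and 1 lower (10.3%) and 1 higher (1.06%) in G37H. On that scale 11.2% of all genes were at least 2-fold lower in DTrsp and 0.679% higher. The marker centring turned the sign of 5 of 36 single member values, the largest of them Slco1a1 in G37L at 0.36, and centring on all genes turned 2, none beyond 0.10 in size. Leaving out Hsd3b4 and Mup3, also chosen after seeing the data, moved nothing beyond these limits. The causes were not tested. No replicate could be left out, because the columns are averages. No paired analysis was possible because each group has 1 column. Signal over background is not known.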

Other observations

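Slco1a4, a transporter close to Slco1a1, was read by 2 probes that lay on opposite sides of wild type in DTrsp, at 1.29 and -1.20, and also differed in G37H, at -1.87 and -0.20. In A34 they were at 0.18 and 0.44. The 2 probes of Slco1a1 differed by less, with -2.16 and -3.16 in DTrsp. Over the 1791 genes with 2 probes, the median SD between probes was 0.30 in DTrsp, 0.20 in A34 liver, 0.22 in G37L and 0.21 in G37H.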
